A study of Mus musculus with 21 samples.

Results

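The binding of Foxa1 and of Hnf4a was compared within 1 line of hepatocyte-like (iHep) cells, using the 3435 Foxa1 peaks and 1580 Hnf4a peaks mapped there by chromatin immunoprecipitation followed by sequencing (ChIP-seq). These 5015 peaks are part of the 53537 peaks in the 13 lists of the series. A peak was called joint where it shared at least 1 bp with a peak of the other antibody. It was called near where it had no such overlap but its centre lay within 2 kb of a centre in the other list, and apart otherwise. The iHep cells came from C57BL/6 mouse embryonic fibroblasts, prepared 13.5 days post coitum and infected with retroviruses carrying Foxa1 and Hnf4alpha. They were set against fibroblasts of the same strain that had been infected with the same factors 48 hours earlier. Lines that received Foxa2 or Foxa3 with Hnf4a served for further comparison, so all cells carried Hnf4a. The promoter that drives the factors, the number of clones and the passage of the cells are not given in the sources used here, and the iHep samples keep the fibroblast label as their cell type. Marker genes were not measured, so that the hepatocyte-like state could not be checked.

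Foxa1 is a forkhead transcription factor of the pioneer class, able to bind its sites in closed chromatin. Hnf4a is a nuclear receptor that binds DNA as a homodimer and maintains the expression of many genes of the mature hepatocyte. In liver, Foxa proteins and Hnf4a are known to occupy many enhancers together. Fibroblasts that receive both kinds of factor can take on hepatocyte features.

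Each group had 1 library, so there was no replicate spread and no test between groups was possible. Shares are given with 95% Wilson intervals and differences between shares with Newcombe intervals. Both take in counting error alone, and peaks that lie side by side are not independent of each other. The files hold no read counts and the sequencing depth is unknown, and how the peak score was computed is not stated. Scores are therefore compared within a list only. In comparisons with other lists, a difference of stage or line cannot be told apart from the codes in the sample titles. Both iHep libraries share the title code R225 and both 48-hour libraries of the line R222.

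Joint binding covered a minority of either list. Of the Foxa1 peaks 246 of 3435 (7.16%, interval 6.35 to 8.07%) were joint, 32 (0.932%) were near and 3157 (91.9%) were apart. Of the Hnf4a peaks 247 of 1580 (15.6%, interval 13.9 to 17.5%) were joint, 35 (2.22%) were near and 1298 (82.2%) were apart. These shares, 7.16% of Foxa1 peaks and 15.6% of Hnf4a peaks, are also the background over each whole list. The 247 overlapping pairs formed 246 joint sites, since 1 Foxa1 peak spanned parts of 2 Hnf4a peaks. Foxa1 peaks had a median width of 412 bp (311 to 1296 bp) and covered 1473318 bp, and Hnf4a peaks had a median width of 308.5 bp (200 to 888 bp) and covered 530280 bp. Both shares rest on the same 247 pairs, divided by lists of different length.

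Most Hnf4a peaks lay many kb from a Foxa1 centre, and most of those that lay within 2 kb were much closer than that limit. From the centre of each Hnf4a peak, the nearest Foxa1 centre lay within 200 bp for 217 peaks, within 500 bp for 256 (16.2%), within 2 kb for 282 (17.8%) and within 10 kb for 413 (26.1%). The steps from 0.5 to 1 kb and from 1 to 2 kb added 13 peaks each, and the step from 2 to 5 kb added 56. The median Hnf4a peak was 89045 bp from the nearest Foxa1 centre. The near class thus held few peaks between the joint and the distant ones.

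At joint sites the centres of the Foxa1 and Hnf4a peaks lay close together. The median distance between the centres was 79 bp (quartiles 34.5 and 139.75 bp, range 0 to 426.5 bp). The overlap rule itself keeps this distance below 50% of the summed widths of a pair, a limit with a median of 396 bp. As a share of that limit the distance had a median of 18.3%. Of the 247 pairs, 89 (36.0%) had centres within 50 bp, 154 (62.3%, interval 56.2 to 68.2%) within 100 bp and 217 (87.9%) within 200 bp. The shared stretch had a median length of 289 bp and a median of 94.1% of the shorter peak. In 226 pairs (91.5%) it made up at least 50% of the shorter peak.

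**Figure D1:**
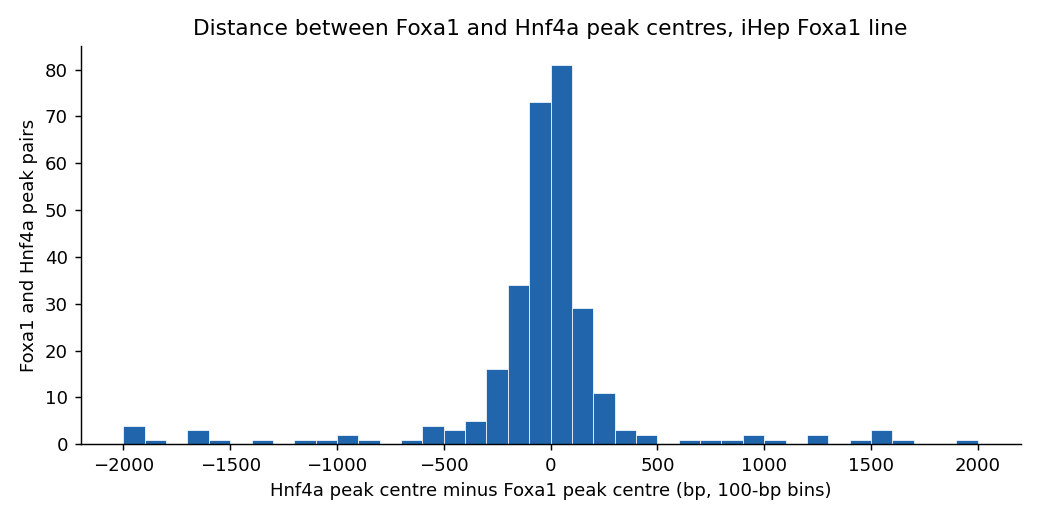
Number of Foxa1 and Hnf4a peak pairs in iHep cells (vertical axis) by the signed distance in bp from the Foxa1 to the Hnf4a centre, out to 2 kb on either side in bins of 100 bp. The tallest bins are the pair next to 0, with 73 pairs on the lower-coordinate side and 81 on the higher-coordinate side, and bins beyond 500 bp hold at most 4 pairs.

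The Foxa1 peak was the wider of the pair in 185 of 247 cases (74.9%). The Hnf4a peak lay wholly inside the Foxa1 peak in 85 pairs (34.4%), and the Foxa1 peak lay wholly inside the Hnf4a peak in 18 (7.29%). The Hnf4a centre stood at the higher coordinate in 122 pairs (49.4%). The pairs were also split at the median Foxa1 score and the median Hnf4a score of the 247 pairs themselves. Pairs with both scores above these medians had a median centre distance of 80.75 bp (66 pairs). It was 94.5 bp where neither score was above (67 pairs). The largest distance that the overlap rule allows also differed, with medians of 474.5 bp and 331.5 bp in the same order. As a share of that largest distance, the median centre distance was 17.5% and 28.0%. The Foxa1 and Hnf4a scores of the same site were only weakly related, with a Spearman rho of 0.104 over 247 pairs, and the widths likewise at 0.152. These pairs share the same pair of libraries and the same chromatin, and the coefficients describe these lists alone.

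The pairs closest to the limits of the classes are given here. The size of the near class depended on its outer limit. It held 35 Hnf4a peaks, and a further 56 had their nearest Foxa1 centre between 2 and 5 kb away. The joint pair with the least overlap shared 15 bp, and the next shared 32 bp. The narrowest gap between a near pair was 7 bp. At the outer limit the most distant near pair had centres 1986 bp apart, and the closest apart pair 2041.5 bp.

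Joint peaks stood somewhat higher in their own lists than apart peaks. Joint Foxa1 peaks had a median score of 23.1 (quartiles 16.8 and 43.0), near ones 21.6 and apart ones 21.3 (quartiles 15.1 and 35.5). Joint Hnf4a peaks had a median score of 12.4 (quartiles 9.74 and 16.7), near ones 9.74 and apart ones 11.1 (quartiles 8.92 and 14.4). The classes overlapped over nearly their whole range. The highest score of each list nevertheless fell in the joint class, at 781 among joint, 100 among near and 450 among apart Foxa1 peaks, and at 79.1 among joint, 19.4 among near and 49.6 among apart Hnf4a peaks.

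Measured against the list median, 139 of 246 joint Foxa1 peaks (56.5%, interval 50.3 to 62.6%) scored above it, against 49.4% of apart ones. For Hnf4a 150 of 247 joint peaks (60.7%, interval 54.5 to 66.6%) scored above the list median, against 48.2% of apart ones. Of the near Hnf4a peaks 13 of 35 did so (37.1%, interval 23.2 to 53.7%). In the upper 50% of each list by score, taken as lists of their own, the interval of the joint share reached below 50% for both factors, with 54.8% (44.7 to 64.6%) for Foxa1 and 55.9% (45.8 to 65.6%) for Hnf4a. Among the highest 25% of each list by score stood 79 joint Foxa1 peaks (32.1%, against 24.5% of apart ones) and 86 joint Hnf4a peaks (34.8%, against 23.3% of apart ones).

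Joint peaks were also wider. Joint Foxa1 peaks had a median width of 450 bp, near ones 409.5 bp and apart ones 410 bp. Joint Hnf4a peaks had a median width of 340 bp, near ones 292 bp and apart ones 302 bp. Of the joint peaks 148 Foxa1 peaks (60.2%, interval 53.9 to 66.1%) and 153 Hnf4a peaks (61.9%, interval 55.7 to 67.8%) were wider than their list median. In the upper 50% of each list by score it was 57.0% of joint Foxa1 peaks (interval 46.8 to 66.6%). Width enters the overlap rule, so the width difference is a description and no independent finding. With every peak set to 500 bp around its centre, 55.7% of joint Foxa1 peaks (interval 49.5 to 61.7%) scored above the list median, an interval that reaches below 50%.

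**Figure D2:**
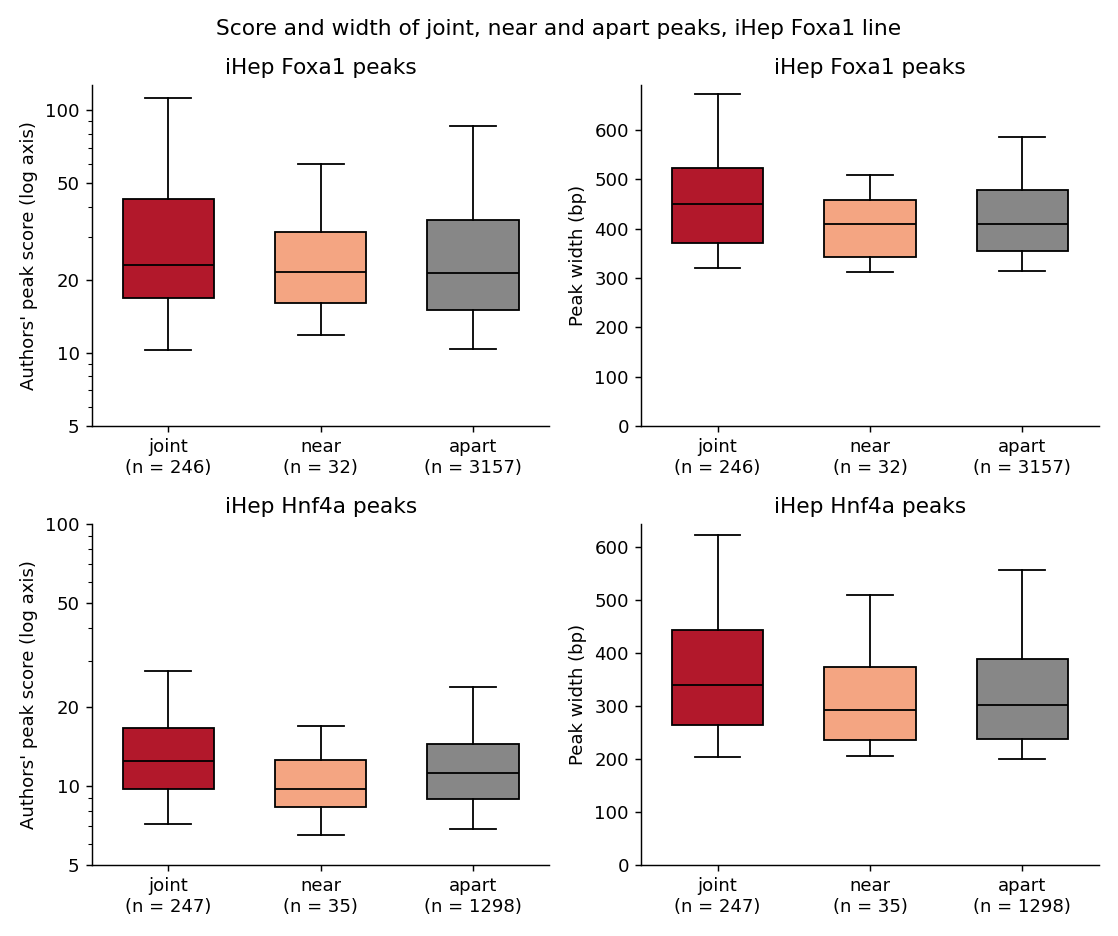
Peak score (log axis) and peak width in bp of joint, near and apart peaks in the iHep Foxa1 and Hnf4a lists, with boxes at the quartiles, lines at the median and whiskers at the 5th and 95th percentiles. Joint medians are the highest in all 4 panels, at 23.1 and 450 bp for Foxa1 and at 12.4 and 340 bp for Hnf4a, while the boxes overlap widely.

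Score and width moved together, with a Spearman rho of 0.770 in the Foxa1 list and 0.578 in the Hnf4a list. The share of joint Foxa1 peaks was 6.08% in the lowest 25% by score and 9.20% (interval 7.44 to 11.3%) in the highest. By width it was 5.36% in the narrowest 25% and 11.3% (interval 9.36 to 13.6%) in the widest. The joint share of Hnf4a peaks was 12.9% (interval 9.93 to 16.5%) in the lowest 25% by score and 21.9% (interval 18.1 to 26.2%) in the highest. By width it was 11.6% in the narrowest and 21.6% in the widest. The gradient for Foxa1 was thus steeper by width than by score, and for Hnf4a the gradients were alike.

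Within peaks of like width the sign of the score difference varied. From the narrowest to the widest 25% of Foxa1 peaks, the median score was 14.3, 17.7, 27.9 and 51.9 for joint peaks and 14.2, 18.6, 27.6 and 51.1 for apart peaks. From the narrowest to the widest 25% of Hnf4a peaks, it was 8.42, 10.96, 13.2 and 16.7 for joint peaks and 9.10, 10.5, 12.2 and 16.3 for apart peaks. Joint peaks thus had the lower median in the second narrowest Foxa1 and the narrowest Hnf4a peaks, and the higher one in the others. Within peaks of like score joint peaks had the wider median in 7 of 8 strata, and the lowest 25% of Hnf4a peaks were the exception, with 230 bp for joint and 241.5 bp for apart peaks. Among the highest-scoring 25%, joint Foxa1 peaks had a median of 540 bp and apart ones 512 bp, and joint Hnf4a peaks had a median of 437.5 bp and apart ones 426 bp.

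**Figure D3:**
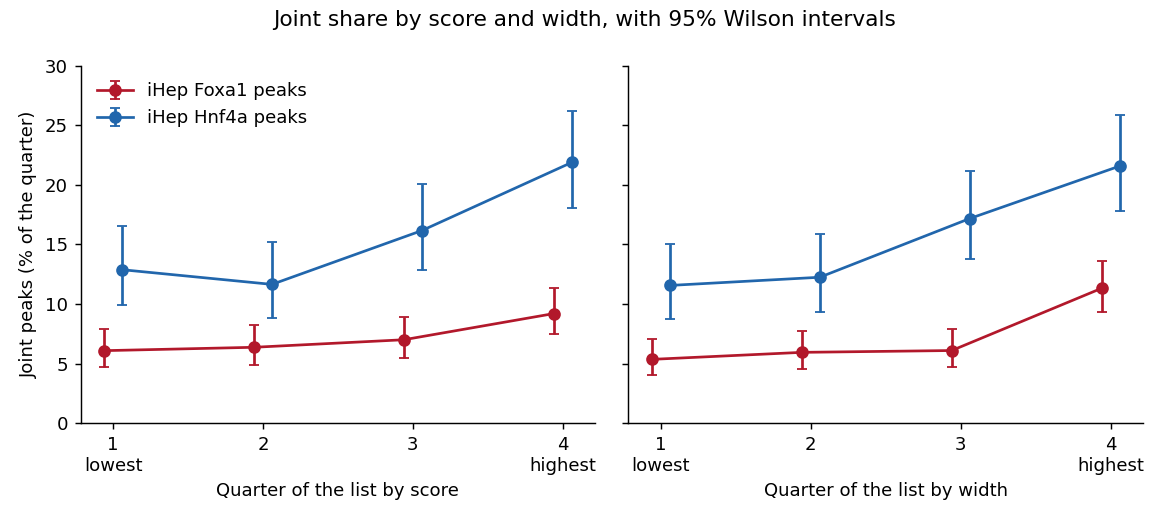
Percent of peaks that were joint in each 25% of the iHep Foxa1 and Hnf4a lists, ordered from low to high by score and by width, with 95% Wilson intervals. The highest 25% holds the largest joint share in each of the 4 orderings, at 9.20% and 11.3% for Foxa1 and at 21.9% and 21.6% for Hnf4a.

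Individual sites show the range of this joint binding. The 10 joint sites with the best summed rank of the Foxa1 and Hnf4a scores lay on 6 chromosomes, with centres 12.5 to 107.5 bp apart. The first was chromosome 9:102898415-102899067 (mm9), with a Foxa1 score of 248 and an Hnf4a score of 36.5. The highest Foxa1 score of the list, 781, stood at chromosome 10:86307891-86308771, beside an Hnf4a score of 27.3 with centres 19 bp apart. This site also carried a 48-hour Foxa1 peak with a score of 957. At chromosome 8:41658592-41659176 the centres were 12.5 bp apart, with a Foxa1 score of 96.6 and an Hnf4a score of 26.9. All 10 sites had a 48-hour Foxa1 peak and an iHep Foxa2 peak in the Foxa2 line, and none had an iHep Foxa3 peak. Over all iHep Foxa1 peaks these shares were 60.8%, 85.3% and 1.72%. An Hnf4a peak was present at 9 sites in the iHep Foxa2 line and at 5 in the iHep Foxa3 line. Over all iHep Hnf4a peaks the shares were 61.9% and 29.2%. The 10 sites were chosen by score, so these counts are a description.

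A strong peak of one factor could sit on a weak peak of the other. The highest Hnf4a score of the list, 79.1, belonged to a peak at chromosome 5:9040767-9041331, a site singled out after its values were seen. It joined a Foxa1 peak at 9040643-9041000 with a score of 14.3, rank 2672 of 3435, and the centres were 227.5 bp apart. Among near pairs, the Hnf4a peak at chromosome 12:101519653-101520073 (score 16.3) lay 386 bp from the edge of a Foxa1 peak at 101520460-101520968 (score 42.7). On chromosome 6 an Hnf4a peak at 117249523-117249921 (score 17.4) lay 1089 bp beyond a Foxa1 peak at 117247934-117248433 (score 51.1) that was itself joint with another Hnf4a peak. Such a shared Foxa1 peak occurred in 7 of the 36 near pairs.

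Peaks with high scores were also found far from the other factor. The strongest apart Foxa1 peak, at chromosome 4:3734098-3734848, had a score of 450, rank 2 of the list, and its nearest Hnf4a centre was 4588880 bp away. The next, at chromosome 9:61656236-61656940, had a score of 305 and lay 440822 bp from an Hnf4a centre. Both had a Foxa1 peak at 48 hours, as did 60.8% of all iHep Foxa1 peaks. Each also had a Foxa2 peak in the iHep Foxa2 line, as did 85.3% of all. The strongest apart Hnf4a peaks were at chromosome 6:85087163-85087722 (score 49.6), chromosome 16:34862066-34862587 (49.5) and chromosome 6:120404629-120405159 (45.7). All 3 had an Hnf4a peak in each of the other 5 Hnf4a lists and overlapped no Foxa1 or Foxa2 peak at either stage, while the first of them overlapped a Foxa3 peak at both. The background shares of those 5 Hnf4a lists over all iHep Hnf4a peaks ran from 2.47% to 61.9%.

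The share of Foxa1 peaks with an early Foxa1 peak was close to the background in the joint and in the apart class. A 48-hour Foxa1 peak of the same line overlapped 2089 of the 3435 iHep Foxa1 peaks, a background of 60.8%. It was present for 150 of 246 joint peaks (61.0%, interval 54.8 to 66.9%), 18 of 32 near peaks (56.2%) and 1921 of 3157 apart peaks (60.8%, interval 59.1 to 62.5%). Joint minus apart was 0.127 percentage points, with an interval from -6.32 to 6.25. Since joint peaks scored higher, apart peaks weighted to the same spread of scores had a share of 63.8%, and those weighted to the same spread of widths 65.5%. In the highest 25% by score 88.6% of joint and 85.6% of apart Foxa1 peaks had a 48-hour peak, and in the lowest 25% it was 41.5% of joint and 41.6% of apart peaks. In the second lowest 25% the share was 35.2% of joint and 49.9% of apart peaks.

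The early Foxa1 list also split the Hnf4a classes, which the class rule itself brings about. A joint Hnf4a peak lies on an iHep Foxa1 peak by definition, and 60.8% of all iHep Foxa1 peaks had a 48-hour Foxa1 peak. The values are therefore given as a description, as are all those that set a class of one factor against a list of the other kind of factor. Over all iHep Hnf4a peaks 206 of 1580, a background of 13%, overlapped a 48-hour Foxa1 peak. Among joint Hnf4a peaks 150 of 247 (60.7%, interval 54.5 to 66.6%) did so, among near ones 7 of 35, and among apart ones 49 of 1298 (3.78%, interval 2.87 to 4.96%). Joint minus apart was 57.0 points. The joint share nearly equals that of the joint Foxa1 peaks, which cover the same ground. The 49 apart Hnf4a peaks had a 48-hour Foxa1 peak but no iHep Foxa1 peak.

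Few joint or apart Hnf4a peaks had an early Hnf4a peak. The 48-hour Hnf4a list held 418 peaks with a median width of 87 bp, and 117 of the 1580 iHep Hnf4a peaks, a background of 7.41%, overlapped one. The shares were 16 of 247 joint peaks (6.48%, interval 4.03 to 10.3%), 2 of 35 near peaks (5.71%) and 99 of 1298 apart peaks (7.63%, interval 6.30 to 9.20%). Joint minus apart came to -1.15 points (interval -4.06 to 2.86). Of the iHep Foxa1 peaks 18, a background of 0.524%, overlapped a 48-hour Hnf4a peak. They comprised 16 joint, no near and 2 apart peaks, a share of 6.50% of joint and 0.0634% of apart peaks. That difference of 6.44 points was 1.08 points when only the upper 50% of peaks by score were kept, where 1 of 93 joint peaks had such an early peak.

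By site, the most frequent 48-hour state of a joint site was a Foxa1 peak alone. Of the 246 joint sites 135 (54.9%, interval 48.6 to 61.0%) overlapped a 48-hour Foxa1 peak only, 15 (6.10%) overlapped peaks of both factors, 1 overlapped an Hnf4a peak only and 95 (38.6%, interval 32.8 to 44.8%) overlapped neither. A site without a listed early peak may have had signal below the calling limit, and the short 48-hour Hnf4a list makes that limit matter most for Hnf4a.

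Sites with early Foxa1 alone had the higher iHep Foxa1 scores. Their median Foxa1 score was 35.5, against 19.8 at sites with both early factors and 18.5 at sites with neither. The median Hnf4a score was 12.7 at sites with early Foxa1 alone, 16.5 at sites with both and 11.8 at sites with neither. Hnf4a peaks had a median width of 553 bp at the 15 sites with both early factors, 362 bp at those with Foxa1 alone and 322 bp at those with neither. The centre distance varied less, with medians of 97 bp, 69 bp and 83.5 bp in the same order of both, Foxa1 alone and neither.

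**Figure D4:**
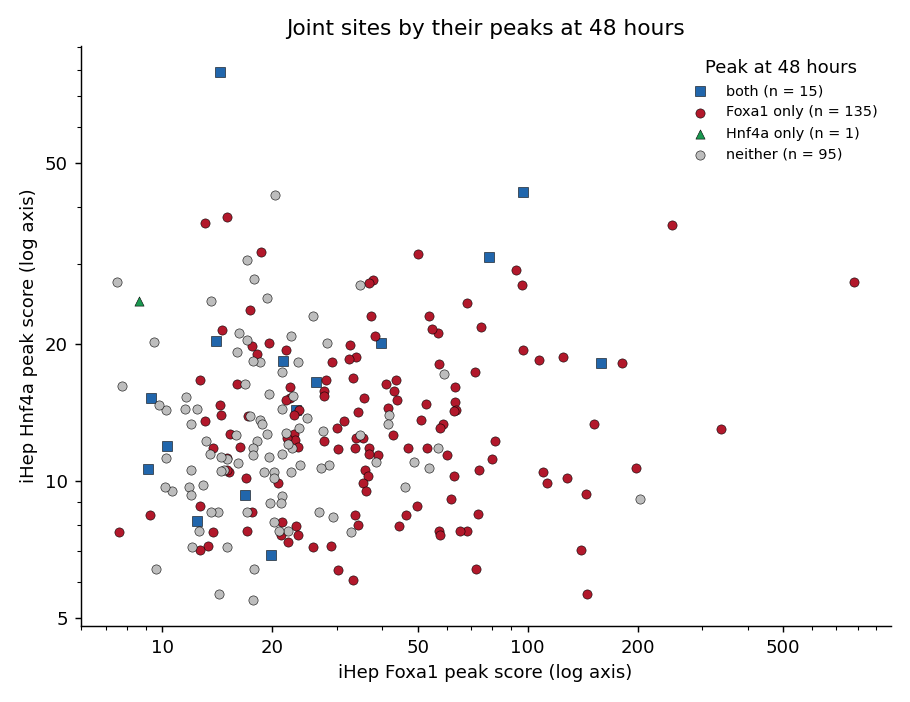
Foxa1 score (horizontal) and Hnf4a score (vertical) of the 246 iHep joint sites, both on log axes, with each point marked by the 48-hour peaks of the line that the site overlaps. The 135 sites with early Foxa1 alone hold the highest Foxa1 score, 781, with a median of 35.5, and the 95 sites with neither early peak have a median of 18.5.

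Among the 15 sites bound by both factors at both stages, 3 are named. Chromosome 5:42295598-42296322 had iHep scores of 97.3 for Foxa1 and 43.2 for Hnf4a, and 48-hour scores of 39.0 for Foxa1 and 9.18 for Hnf4a. Chromosome 16:52333641-52334265 had iHep scores of 78.2 for Foxa1 and 31.0 for Hnf4a, and 48-hour scores of 131 for Foxa1 and 5.62 for Hnf4a. Chromosome 3:132874286-132874810 had iHep scores of 159 for Foxa1 and 18.2 for Hnf4a, and 48-hour scores of 171 for Foxa1 and 6.34 for Hnf4a. At the 16 sites with a 48-hour Hnf4a peak, its score ranged from 5.62 to 14.3 with a median of 7.91, and its width from 53 to 343 bp. Of these 16 sites 14 also had an Hnf4a peak in the iHep Foxa2 line and 12 in the iHep Foxa3 line. Over all iHep Hnf4a peaks of the Foxa1 line the shares were 61.9% and 29.2%, and over joint ones 67.2% and 30.8%.

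By summed rank, the first 3 joint sites with no early peak in the line were chromosome 12:46171080-46171578, chromosome 6:5516550-5517094 and chromosome 8:41961882-41962352. Their Foxa1 scores were 59.1, 34.7 and 41.7 and their Hnf4a scores 17.2, 26.9 and 13.9, with centres 31, 21.5 and 10 bp apart. All 3 had both a Foxa2 and an Hnf4a peak in the iHep Foxa2 line. Of the 95 joint sites with neither early peak, 75.8% had a Foxa2 peak and 65.3% an Hnf4a peak in that line. At joint sites with early Foxa1 alone the shares were 96.3% and 65.9%. The background was 85.3% of all iHep Foxa1 peaks for Foxa2 and 61.9% of all iHep Hnf4a peaks for Hnf4a. Single scores at these 95 sites reached 203 for Foxa1 and 42.6 for Hnf4a.

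Where a Foxa1 peak was present at both stages, its standing in the list was compared as a percentile of the score. Joint peaks had a median percentile of 73.0 in iHep cells and 68.4 at 48 hours over 150 pairs, and 73 of them (48.7%, interval 40.8 to 56.6%) stood higher in iHep cells. Apart peaks had a median percentile of 62.5 in iHep cells and 72.9 at 48 hours over 1922 pairs, and 736 (38.3%, interval 36.1 to 40.5%) stood higher in iHep cells. The difference between joint and apart in this share was 10.4 points (interval 2.21 to 18.6). The classes were set in the iHep lists, where joint Foxa1 peaks scored higher than apart ones. A change between the stages cannot be told apart from that choice, so the difference is a description. Joint Foxa1 peaks without a 48-hour peak had a median iHep percentile of 40.5, and apart ones 33.5.

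Centre positions at the 2 stages were compared for peaks that overlap between them, which limits how far apart they can lie. The Foxa1 centre differed between iHep cells and 48 hours by a median of 33.5 bp at 150 joint peaks and 29 bp at 1921 apart peaks. The Hnf4a centre differed by a median of 89 bp at 16 joint peaks and 74 bp at 99 apart peaks. At joint sites the iHep Hnf4a centre lay a median of 78 bp from the 48-hour Foxa1 centre, close to its 79 bp from the iHep Foxa1 centre.

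Few 48-hour Foxa1 peaks lay at joint iHep sites. Of the 6781 Foxa1 peaks at 48 hours, 150 (a background of 2.21%) overlapped a joint iHep Foxa1 peak, 1937 (28.6%) an iHep Foxa1 peak that was not joint, 53 (0.782%) an iHep Hnf4a peak without Foxa1, and 4641 (68.4%) neither. Their median 48-hour scores were 25.2, 27.7, 14.0 and 16.0 in that order. The 48-hour peaks at joint sites thus had a lower median score than those at iHep Foxa1 peaks that were not joint.

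Peaks already joint at 48 hours are few, and their share at joint iHep sites depends on the dense blocks described next. Over all 48-hour Foxa1 peaks, 15 of 53 that overlapped a 48-hour Hnf4a peak were at a joint iHep site (28.3%), against 135 of 6728 that did not (2.01%). Outside the blocks it was 13 of 36 (36.1%, interval 22.5 to 52.4%), against 134 of 6726 (1.99%). A further 11 of those 36 (30.6%) had an iHep Hnf4a peak without Foxa1, against 39 of 6726 (0.580%). Of the 418 Hnf4a peaks at 48 hours, 21 (a background of 5.02%) overlapped a joint iHep Hnf4a peak. Among those that overlapped a 48-hour Foxa1 peak 18 of 158 did so (11.4%), against 3 of 260 that did not (1.15%). Outside the blocks, where 19 of 290 early Hnf4a peaks did so in all (6.55%), it was 16 of 41 (39.0%) against 3 of 249 (1.20%).

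A set of 3 dense blocks of 48-hour peaks, on chromosomes 2, 9 and 10, held 128 of the 418 Hnf4a peaks and 19 of the Foxa1 peaks of that stage. Only the block at chromosome 10:7229418-7236934 held joint iHep sites, with 3 iHep Foxa1 peaks, all joint, and 7 iHep Hnf4a peaks, of which 4 were joint. It contains the Foxa1 peak at 7233208-7233705 that overlapped 2 Hnf4a peaks. Without the blocks the joint shares were 7.08% of Foxa1 peaks and 15.5% of Hnf4a peaks, and the difference between joint and apart Hnf4a peaks at the 48-hour Foxa1 list was 56.5 points.

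Most joint sites also carried peaks in the Foxa2 line of iHep cells. A Foxa2 peak of that line overlapped 85.3% of all Foxa1 peaks, with 87.4% of joint, 87.5% of near and 85.1% of apart ones. Joint exceeded apart by 2.32 points (interval -2.56 to 6.12). Its Hnf4a peaks overlapped 61.9% of all Hnf4a peaks, and 166 joint (67.2%), 16 near (45.7%) and 796 apart (61.3%) Hnf4a peaks. Here joint exceeded apart by 5.88 points (interval -0.735 to 12.0), and apart Hnf4a peaks weighted to the scores of the joint ones had a share of 66.1%. Across the antibodies, the Hnf4a list of the Foxa2 line overlapped 8.38% of all Foxa1 peaks, with 165 joint (67.1%), 4 near (12.5%) and 119 apart (3.77%). The Foxa2 list overlapped 23.2% of all Hnf4a peaks, with 214 joint (86.6%), 8 near (22.9%) and 144 apart (11.1%). Of the 246 joint sites 149 (60.6%) had both Foxa2 and Hnf4a in the Foxa2 line, 66 (26.8%) Foxa2 alone, 16 (6.50%) Hnf4a alone and 15 (6.10%) neither.

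In the Foxa3 line of iHep cells the same sites seldom carried the Foxa protein. Foxa3 peaks of that line overlapped 1.72% of all Foxa1 peaks, with 8 joint (3.25%), 4 near (12.5%) and 47 apart (1.49%). They overlapped 9.11% of all Hnf4a peaks, with 6 joint (2.43%, interval 1.12 to 5.20%) and 135 apart (10.4%, interval 8.86 to 12.2%). For Hnf4a peaks joint minus apart was -7.97 points (interval -10.2 to -4.80). Hnf4a peaks of the Foxa3 line overlapped 29.2% of all Hnf4a peaks, with 76 joint (30.8%) and 378 apart (29.1%). They overlapped 3.09% of all Foxa1 peaks, with 71 joint (28.9%), 3 near (9.38%) and 32 apart (1.01%). Hnf4a was present in all 3 iHep lines at 74 of the 246 joint sites (30.1%), and both Foxa3 and Hnf4a at 6 (2.44%). At 11 joint sites (4.47%) none of the other 10 lists of Foxa and Hnf4a had a peak. In these counts by site, here and for the Foxa2 line, it was enough that any peak of the site overlapped the list. No matching shares were computed over all Foxa1 or all Hnf4a peaks, so these counts are not read as particular to joint sites.

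Joint Foxa1 peaks had a lower share with an early Foxa2 peak than apart ones. The 48-hour Foxa2 list overlapped 30.7% of all iHep Foxa1 peaks, with 56 joint (22.8%, interval 18.0 to 28.4%), 11 near (34.4%) and 986 apart (31.2%, interval 29.6 to 32.9%). Joint minus apart was -8.47 points there (interval -13.5 to -2.61), and 0.127 points at the 48-hour Foxa1 list. For Hnf4a peaks the 48-hour Foxa2 list overlapped 7.85% of all peaks, with 57 joint (23.1%), 3 near (8.57%) and 64 apart (4.93%).

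The remaining 48-hour lists touched few sites. The Foxa3 list of that stage overlapped 1.37% of all Foxa1 peaks, with 5 joint, no near and 42 apart peaks, and 5.57% of all Hnf4a peaks, with 5 joint (2.02%), no near and 83 apart peaks (6.39%). For Hnf4a peaks joint minus apart was -4.37 points (interval -6.24 to -1.48), the same direction as at the iHep Foxa3 list. The 48-hour Hnf4a list of the Foxa2 line overlapped 0.204% of all Foxa1 peaks, with 5 joint, no near and 2 apart peaks, and 4.37% of all Hnf4a peaks, with 6 joint, 1 near and 62 apart peaks. The 48-hour Hnf4a list of the Foxa3 line overlapped 0.146% of all Foxa1 peaks, with 4 joint, no near and 1 apart peak, and 2.47% of all Hnf4a peaks, with 5 joint, 2 near and 32 apart peaks.

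**Figure D5:**
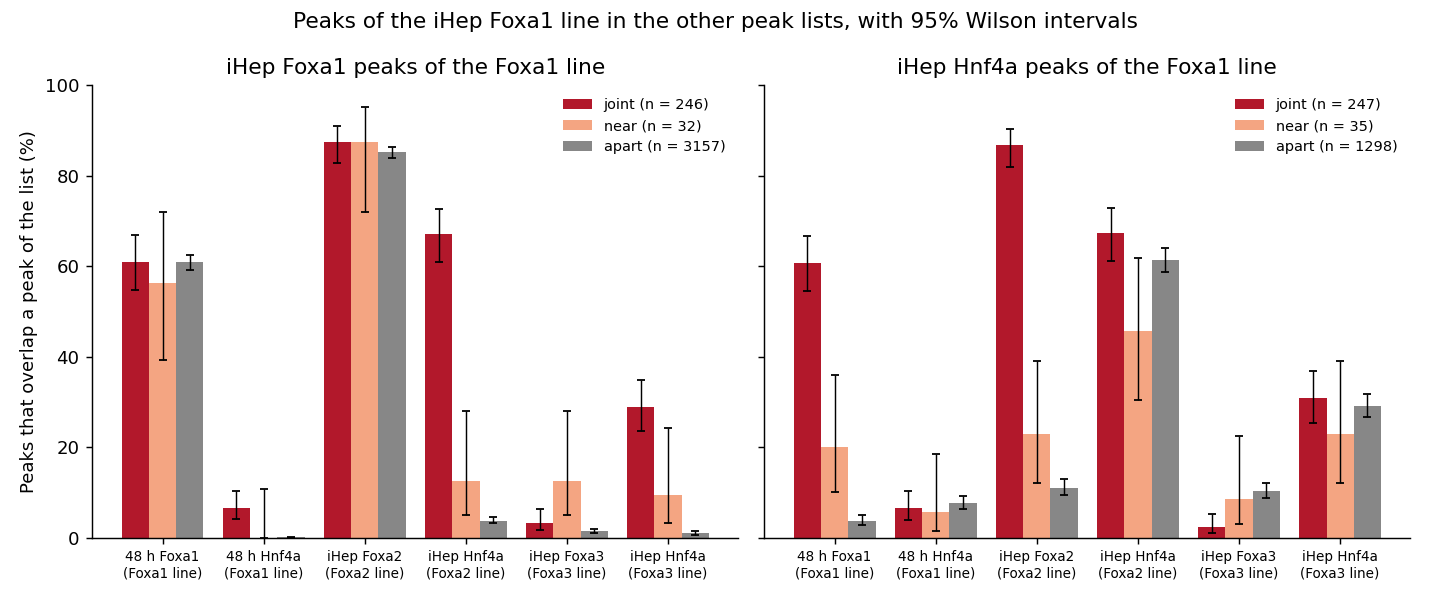
Percent of joint, near and apart peaks of the iHep Foxa1 list and of the iHep Hnf4a list that overlap a peak of 6 further lists by at least 1 bp, with 95% Wilson intervals. For Foxa1 peaks the classes lie together at the 48-hour Foxa1 list (61.0% joint, 60.8% apart), and for Hnf4a peaks the class rule sets them apart there (60.7% joint, 3.78% apart).

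The 3 iHep lines differed in how closely their own Foxa protein and Hnf4a were placed. In the Foxa1 line the 247 pairs had a median centre distance of 79 bp, with 62.3% within 100 bp. In the Foxa2 line 511 pairs had a median of 68.5 bp, with 68.5% within 100 bp. In the Foxa3 line 981 pairs had a median of 123 bp, with 44.8% within 100 bp. The near class held 2.22% of the Foxa1 line's Hnf4a peaks, 2.90% of the Foxa2 line's and 14.7% of the Foxa3 line's. Joint Hnf4a peaks scored above their list median in 60.7% of cases for the Foxa1 line, 63.2% for the Foxa2 line and 50.5% for the Foxa3 line. With 1 library per antibody in each line and lists of unequal length and width, these differences were not tested. The Foxa2 and Hnf4a libraries of the iHep Foxa2 line carry different title codes, while those of the Foxa1 line and of the Foxa3 line share a code within the line.

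Early Foxa peaks at joint and apart Foxa peaks were also counted in the other lines. The share of iHep Foxa peaks with a 48-hour peak of the same Foxa protein was 61.0% for joint and 60.8% for apart peaks in the Foxa1 line. It was 26.6% for joint and 20.5% for apart peaks in the Foxa2 line, a difference of 6.07 points (interval 2.33 to 10.1). In the Foxa3 line it was 49.9% for joint and 44.1% for apart peaks, a difference of 5.85 points (interval 2.41 to 9.28). The interval of the Foxa1 line, -6.32 to 6.25, contains both of these differences. That does not compare the lines, since no interval was computed for a difference between them, and such a difference was not tested.

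Joint sites were spread over the genome. They fell on 20 chromosomes with a median spacing of 5606450 bp between neighbours. For 3 of them the next joint site along the chromosome started within 10 kb. The joint share of Hnf4a peaks ran from 9.09% on chromosome 17 (7 of 77 peaks) to 30.4% on chromosome 18 (14 of 46 peaks), and it was 29.5% on chromosome 3 (26 of 88 peaks). A neighbour of the same list within 10 kb was present for 26 joint (10.6%), 6 near (18.8%, interval 8.89 to 35.3%) and 363 apart (11.5%) Foxa1 peaks. For Hnf4a peaks it was present for 28 joint (11.3%), 11 near (31.4%, interval 18.6 to 48.0%) and 144 apart (11.1%). The interval of the near class contains the apart share for Foxa1 and lies above it for Hnf4a. In 7 of the 36 near pairs, however, the Foxa1 peak was joint with another Hnf4a peak. The class rule itself gives those near Hnf4a peaks a neighbour within 10 kb, so no conclusion is drawn from the Hnf4a value.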

How the data were processed

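Peaks of Foxa1 and Hnf4a in the iHep Foxa1 line were compared with each other and with the lists of 48 hours and of the other lines. The deposited files give position, name and a score for each peak, and per the labels each file belongs to 1 sample. How the authors computed the score is not stated in those sources. The build is mm9, and MACS2 2.1.0, BWA 0.6.2 and bedtools 2.16.2 are listed with no role for each, per the submitters' processing notes. Whether an input was used in calling is not given, and the 8 inputs among the 21 samples were not used.

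Sample titles gave the stage, line and antibody of each group. Overlap needed 1 bp, near meant centres within 2 kb, and differences used 95% Wilson or Newcombe intervals, which cover counting error only. Peaks were ranked by score within a list. The weighted shares give apart peaks the joint peaks' spread over the 4 parts of the list by score or width. Dense blocks are runs of 5 or more peaks, spaced by no more than 2 kb, in every 48-hour Hnf4a list, widened by 10 kb where they were left out. The members, lists and comparisons were chosen with earlier results of these data known. Sites named were the 10 joint sites of best summed rank and 3 per class or early state, of which the text prints some. Those 3 were chosen by highest score for apart peaks and by best summed rank otherwise. The class and overlap code was tested on simulated data. No gene was assigned to a peak, since the gene table given is for GRCm38, and no sequence is shown. Alternatives were other overlap rules, peak widths, list lengths, near limits, merged peaks, autosomes only and removal of the blocks. Python 3.11.15, NumPy 2.4.6, pandas 2.3.3 and matplotlib 3.10.9 were used.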

Additional observations from a re-analysis of the deposited data

Results flagged for a closer look

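In iHep cells of the Foxa1 line 60.7% of joint Hnf4a peaks scored above the median of their list, while at 48 hours 45.6% of joint Hnf4a peaks (72 of 158, interval 38.0 to 53.3%) did so. The first share is above 50% and the second below it, but the 48-hour interval contains 50%, so that a place below the median is not shown. Outside the dense blocks the 48-hour share was 36.6% (15 of 41, interval 23.6 to 51.9%). The difference between the stages was not tested, since there was 1 library at each.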

How the results depend on the processing

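Over 11 results and 94 alternative values, 85 stayed inside the interval of the reported value and 9 moved outside it. Joint minus apart for Foxa1 peaks at the 48-hour Foxa1 list, 0.127 points as reported, was negative under 6 of 10 alternatives, from -4.68 points with lists of equal length to -0.017 points with merged peaks, and every interval contained 0. The 3 other differences kept their sign. The joint share of Foxa1 peaks was 5.41% among the upper 50% of each list by score and 6.32% for centres within 200 bp. The joint share of Hnf4a peaks was 13.7% with centres within 200 bp, 11.8% in the upper 50% and 7.97% with lists reduced to equal length. The share of pairs with centres within 100 bp was 71.0% when pairs were formed by centres within 200 bp. The difference between joint and apart Foxa1 peaks at the 48-hour Hnf4a list was 1.08 points in the upper 50%. The difference between joint and apart Hnf4a peaks was 38.1 points at the 48-hour Foxa1 list with lists of equal length, and -5.68 points (interval -8.41 to -0.033) at the 48-hour Hnf4a list in the upper 50%. Fewer peaks enter the shortened lists, and beyond that the cause was not tested. The share of joint Foxa1 peaks above the list median score was 57.1% with equal length (interval 48.4 to 65.4%), which reaches below 50%, as do the shares in the upper 50% given above for the score of both factors and the Foxa1 width. Depth is unknown, so that absence from a list, above all the short 48-hour Hnf4a list, does not show absence of binding. No paired analysis was possible because each group had 1 library and no test was made.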
